A study of Mus musculus with 8 samples.

Results

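A set of 10 genes that bring fatty acids and lipoprotein lipid into cells was followed in the liver of mice with and without the microRNA miR-223. They are the lipoprotein receptor Vldlr, the scavenger receptor Cd36, the fatty acid transport proteins Slc27a1, Slc27a2 and Slc27a4, and the fatty acid-binding proteins Fabp1, Fabp2, Fabp4, Fabp5 and Fabp7. Every probe that carries one of these symbols in the authors' deposited table was taken. This gave 13 probes of 8 genes, out of 40646 probes and 21180 symbols in that table. Fabp1 and Slc27a2 had no probe there under their symbols, and 4 further probes (1 each of Fabp1, Slc27a2, Fabp2 and Cd36) were found on the arrays through their RefSeq accessions, so that all 10 genes had at least 1 of 17 probes. The genes were selected on their function with the log2 differences between knockout and control already known, so those differences are given as a description and support nothing beyond themselves.

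Liver RNA came from 4 wild-type samples (WT) and from 4 samples lacking miR-223 (miR-223KO). All 8 were labelled as male, on a C57BL/6J background and fed a high-fat diet for 3 months, so the controls share the diet and no sample on another diet was compared. The age of the mice, the design of the knockout allele and whether each sample was 1 mouse are not given in the sources used here, so error terms measure only the spread between these samples. Each liver RNA was hybridised in Cy5 to its own Agilent 2-colour array against a mixed mouse tissue RNA in Cy3. A value below is the log2 ratio of liver over that reference, and a difference is the mean ratio in miR-223KO less that in WT.

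Fatty acids reach hepatocytes from the blood bound to albumin or inside lipoproteins. At the membrane Cd36 binds long-chain fatty acids, and Vldlr takes up triglyceride-rich lipoproteins and is normally scarce in healthy liver. The Slc27a proteins couple entry to acyl-CoA formation, and the Fabp proteins carry fatty acids inside the cell, each with a characteristic tissue: Fabp1 in liver, Fabp2 in intestine, Fabp4 in adipocytes and macrophages, Fabp5 in skin and macrophages, and Fabp7 in brain. Several of these genes are targets of PPAR nuclear receptors. miR-223 is a microRNA abundant in neutrophils and macrophages, and it lowers target transcripts by pairing through its seed, bases 2 to 8.

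The mature microRNA removed in the knockout is shown first, with its seed in capitals (RefSeq, GRCm38.p6, chrX:96242884-96242905, plus strand). No probe on the arrays was named for it, so its loss could not be followed.
mmu-miR-223-3p: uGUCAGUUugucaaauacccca
The reverse complement of the seed, AACTGAC, was searched in the array probes, on the strand in which the authors' deposited table prints them. It stood in 150 of 40646 probes (0.369%) and in 1 of the 13 member probes, that of Fabp2. The stretch of that probe around the match, with the match in capitals, is shown because it is the match among the member probes.
Fabp2 A_52_P453013: caatctgaAACTGACaatcacacaggatgg
A probe covers a short piece of its transcript, so the absence of these letters from the other 12 probes says nothing about the rest of those transcripts.

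The 250 bases upstream of the annotated start are shown for the receptors Cd36 and Vldlr, whose probes had the largest differences described below, and for Fabp1, the liver isoform. They are RefSeq sequences of GRCm38.p6, and 8 of the 10 genes had such a window. Capitals mark AGGTCA, the core hexamer of nuclear receptor sites, on either strand, and in Fabp1 also a direct repeat of AGGNCA with 1 base between the copies, the DR1 form bound by PPAR with RXR, searched on both strands, which overlaps 1 of the hexamers.
Cd36 chr5:17835897-17836146, minus strand: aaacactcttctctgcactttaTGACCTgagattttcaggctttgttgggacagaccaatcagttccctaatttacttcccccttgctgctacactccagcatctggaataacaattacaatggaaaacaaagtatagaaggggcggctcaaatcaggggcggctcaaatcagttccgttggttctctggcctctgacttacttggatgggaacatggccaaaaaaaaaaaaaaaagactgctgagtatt
Fabp1 chr6:71199629-71199878, plus strand: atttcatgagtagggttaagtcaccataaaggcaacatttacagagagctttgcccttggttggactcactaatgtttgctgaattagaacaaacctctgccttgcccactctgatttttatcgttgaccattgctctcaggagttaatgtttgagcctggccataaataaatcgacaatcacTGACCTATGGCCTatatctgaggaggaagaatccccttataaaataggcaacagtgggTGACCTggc
Vldlr chr19:27216234-27216483, plus strand: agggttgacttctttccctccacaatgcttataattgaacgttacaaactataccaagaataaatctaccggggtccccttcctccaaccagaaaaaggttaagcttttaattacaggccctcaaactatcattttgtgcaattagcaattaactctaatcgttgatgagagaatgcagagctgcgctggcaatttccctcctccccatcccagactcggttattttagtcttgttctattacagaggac
AGGTCA was found in 4 of the 11 windows of these genes (those of Slc27a2, Cd36, Fabp1 and Fabp7), against 14% of all 32851 windows. The direct repeat was found in 1, that of Fabp1, 67 to 55 bases upstream of the start, against 0.338% of all windows. The Vldlr window shown held neither. These matches describe letters in a window and not binding.

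On the 8 arrays, 49.5% to 69.8% of 43379 non-control spots were well above background in Cy5, and 2.00% to 5.67% carried an outlier flag of the scanner software. Detection was lowest in WT replicate 4, miR-223KO replicate 2 and WT replicate 3 (49.5%, 53.0% and 53.2%), while the other 5 arrays ranged from 63.5% to 69.8%. No spot was saturated. The arrays lay on 2 slides, each with 2 WT and 2 miR-223KO samples. The hepatocyte marker Alb had a mean log2 ratio of 2.01 over all arrays and was well above background on 8 of 8.

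Of the 17 probes, 11 (6 genes) met the conditions for the fit, which were Cy5 well above background on at least 4 arrays and at least 3 unflagged values in each group. Of the other 6 probes, 5 lost spots to outlier flags and 1, that of Fabp5, was dim. All 4 probes found by accession were among those lost to flags. Across the array, each of the 620 probes outside the authors' deposited table was flagged on 5 or more arrays, against 170 of 40554 probes inside it. The Fabp1 probe was flagged on 6 arrays and the Slc27a2 probe on 5, and both were well above background on all 8.

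None of the 11 probes passed limma at an adjusted p of 0.05, where 2 of 23930 probes passed in all (0.00836%, with 1 of them higher, 0.00418%). The adjusted p of the member probes ran from 0.488 to 1.00. Both Vldlr probes and 1 Cd36 probe, 3 of 11, had an unadjusted p under 0.05, all of them higher in miR-223KO. Over the array that share was 4.54%, and 2.35% for higher probes alone. Both Vldlr probes met the detection condition through the miR-223KO arrays, being well above background on 4 of those and on 2 WT arrays. The count of 3, and the separation of a Vldlr probe given below, are therefore a description only. Of the 11 probes, 7 had a difference above 0 (49.4% of all probes did), and their median difference was 0.02 against -0.00302 for all probes tested. Complete separation of the groups, with every miR-223KO value above every WT value, occurred for 1 of 11, a Vldlr probe, and for 1.69% of all probes. Separation the other way occurred for none of the 11 and for 1.35% of all probes.

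**Figure D1:**
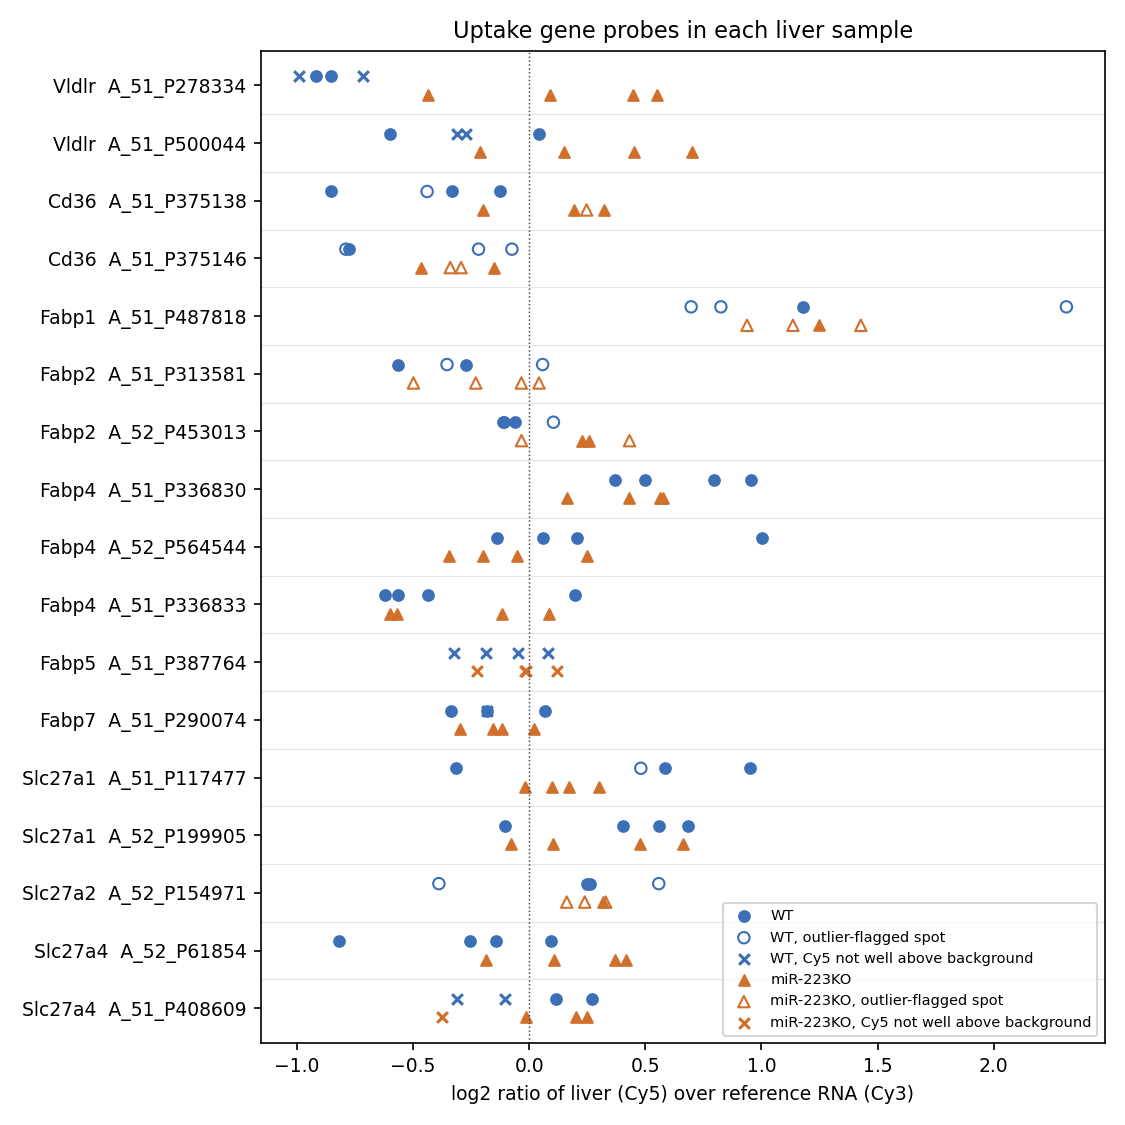
Log2 ratio of liver (Cy5) over reference RNA (Cy3) on each of the 8 arrays, 1 row per probe, with WT in blue above miR-223KO in orange, open symbols for outlier-flagged spots and crosses for Cy5 not well above background. The Vldlr probe A_51_P278334 in the top row is separated between the genotypes, with WT from -0.99 to -0.71 and miR-223KO from -0.44 to 0.55, and most Fabp1 and Slc27a2 symbols are open.

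Vldlr, the receptor for triglyceride-rich lipoproteins, showed the largest difference of the 10 genes. On probe A_51_P278334 the log2 ratio was -0.92, -0.85, -0.99 and -0.71 in WT replicates 1 to 4, and 0.45, -0.44, 0.55 and 0.09 in miR-223KO replicates 1 to 4. The WT values lay close together, the miR-223KO values were spread more widely, and the groups did not overlap. The means were -0.87 ± 0.12 (SD, n = 4) and 0.16 ± 0.45 (SD, n = 4), a difference of 1.03 (SE 0.21). Its size is uncertain, since WT replicates 3 and 4 were not well above background, and with a normexp offset of 16 in place of 50 it was 1.30.

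The other Vldlr probe, A_51_P500044, shares no run of more than 7 bases with the first. Its log2 ratio was 0.04, -0.60, -0.27 and -0.31 in WT and 0.70, -0.21, 0.15 and 0.45 in miR-223KO. Here the groups overlapped, since WT replicate 1 lay above the lowest miR-223KO sample, and miR-223KO replicate 2 was again the lowest of its group. The means were -0.28 ± 0.26 (SD, n = 4) and 0.27 ± 0.39 (SD, n = 4), a difference of 0.56 (SE 0.22).

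Both Vldlr probes were dim. Cy5 was well above background on 2 of 4 WT arrays (replicates 1 and 2) and on 4 of 4 miR-223KO arrays, for each of the probes. On A_51_P278334 the Cy5 median signal was 72 to 178 in WT over a local background of 49.5 to 63, and 123 to 283 in miR-223KO over 42 to 57. WT replicates 3 and 4, the undetected samples, were also among the 3 arrays of lowest Cy5 detection. Without those 3 arrays, which left 2 WT and 3 miR-223KO samples, the difference was 1.25 on A_51_P278334 and 0.71 on A_51_P500044. The remaining array left out was miR-223KO replicate 2, the lowest of its group on both probes. Without that sample alone the differences were already 1.23 and 0.72. Within slides 1 and 2 the difference was 0.89 and 1.17 on A_51_P278334, and 0.52 and 0.59 on A_51_P500044. The WT samples of slide 2 were the undetected replicates 3 and 4. The authors' deposited table gives 1.79 and 1.52 for these probes, more than 1.5 times the fitted values. In the authors' deposited table WT replicates 3 and 4 stand at -2.15 and -1.39 on A_51_P278334 and at -1.79 and -1.64 on A_51_P500044. The size of the Vldlr difference thus moved with the processing, while its sign did not turn under any setting that tested it. Neither probe entered the setting that required Cy5 well above background on all 8 arrays.

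Cd36, the membrane glycoprotein that binds long-chain fatty acids, was bright enough to be measured on all arrays. On probe A_51_P375138 the log2 ratio was -0.85, -0.12, -0.33 and -0.44 in WT and 0.32, 0.19, 0.25 and -0.20 in miR-223KO, and WT replicate 4 and miR-223KO replicate 3 were outlier-flagged. Of the miR-223KO samples, replicate 4 fell among the WT values and the other 3 lay above all WT samples. With flagged spots left out the means were -0.44 ± 0.38 (SD, n = 3) and 0.11 ± 0.27 (SD, n = 3), a difference of 0.54 (SE 0.24), and with them kept it was 0.58 (SE 0.20). WT replicate 1 was the lowest of all samples, and without it the difference was 0.33. The difference was 0.75 on slide 1, and on slide 2 it was 0.13 with flagged spots left out and 0.41 with them kept. Only WT replicate 3 and miR-223KO replicate 4 were unflagged on slide 2. The authors' deposited table gives 0.61 for this probe.

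The other Cd36 probe, A_51_P375146, was flagged on 5 of 8 arrays and was not tested. With flagged spots kept its log2 ratio was -0.78, -0.22, -0.07 and -0.79 in WT and -0.47, -0.15, -0.34 and -0.29 in miR-223KO. All miR-223KO values fell within the WT range, and the difference was 0.15 (SE 0.20). The Cd36 probes thus gave differences of unlike size.

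**Figure D2:**
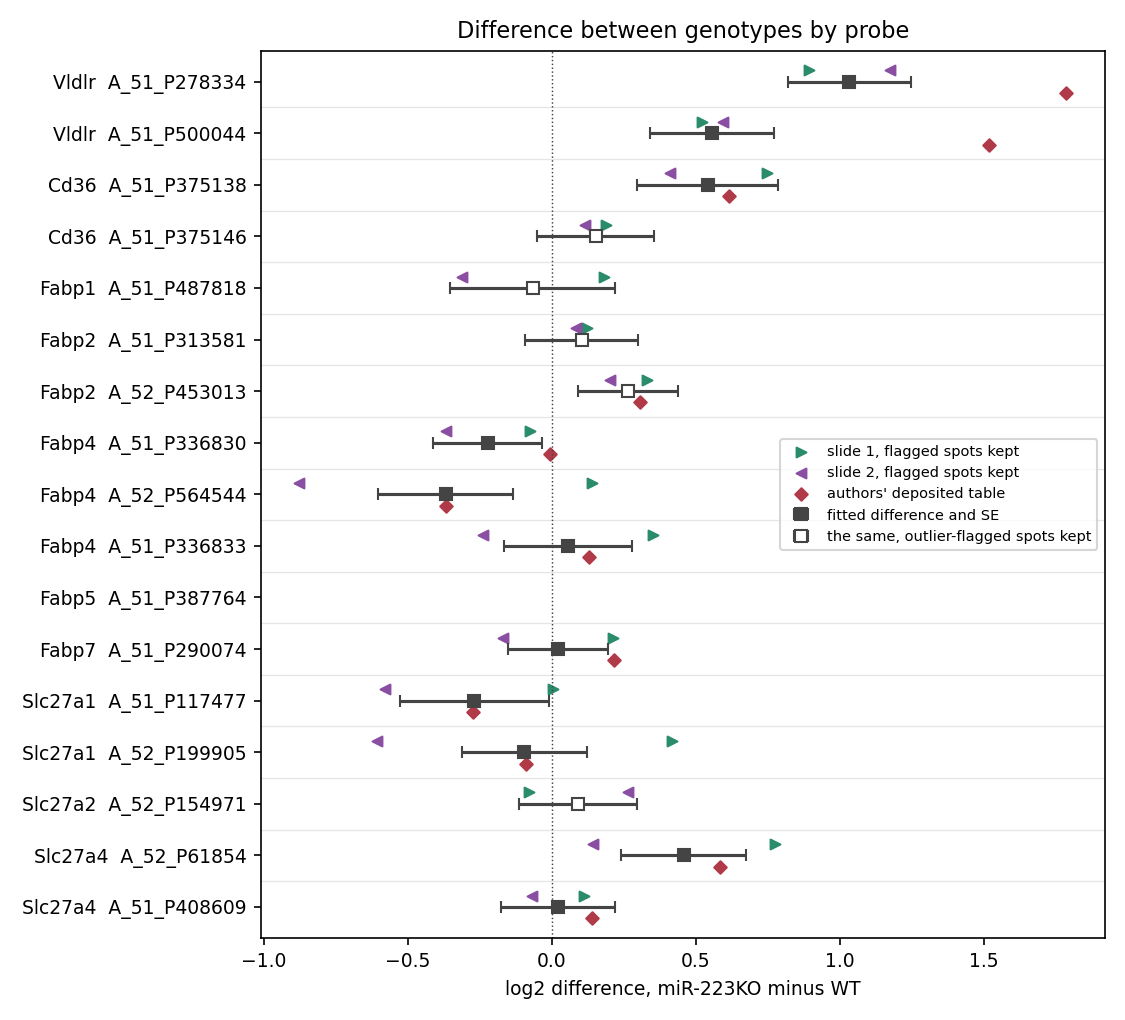
Difference in log2 ratio between miR-223KO and WT for each probe, with the fitted value and its SE (filled squares, or open squares where only a fit with outlier-flagged spots was possible), the value within each slide with flagged spots kept (triangles) and the value of the authors' deposited table (diamonds). The diamonds of both Vldlr probes, at 1.79 and 1.52, lie far to the right of the fitted 1.03 and 0.56, and the slides fall on opposite sides of 0 for 8 probes, those of Fabp1, Fabp7, Slc27a2, both of Slc27a1, 2 of Fabp4 and 1 of Slc27a4, with the widest gaps for Fabp4 A_52_P564544 (0.14 and -0.88) and Slc27a1 A_52_P199905 (0.42 and -0.61).

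Among the transport proteins, Slc27a4, the family member best known from intestine and skin, was measured by a probe detected on all arrays and by one that was not. On A_52_P61854 the log2 ratio was -0.82, -0.26, -0.14 and 0.09 in WT and 0.37, 0.11, -0.18 and 0.42 in miR-223KO. The groups overlapped through miR-223KO replicate 3. The means were -0.28 ± 0.39 (SD, n = 4) and 0.18 ± 0.28 (SD, n = 4), a difference of 0.46 (SE 0.22). As for Cd36, WT replicate 1 was the lowest sample, and without it the difference was 0.28, with 0.77 on slide 1 and 0.14 on slide 2. The authors' deposited table gives 0.58. The probe A_51_P408609, with Cy5 well above background on 2 WT and 3 miR-223KO arrays, had a difference of 0.02 (SE 0.20).

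Slc27a1, the family member of muscle and adipose tissue, had a log2 ratio on A_51_P117477 of -0.31, 0.58, 0.95 and 0.48 (flagged) in WT and -0.02, 0.30, 0.17 and 0.10 in miR-223KO. The WT samples spread widely on both sides of the miR-223KO samples. The difference was -0.27 (SE 0.26), but it was 0.01 on slide 1 and -0.81 on slide 2. On slide 2 WT replicate 3 was the only unflagged WT sample, and with flagged spots kept the difference there was -0.58. Without WT replicate 3, which left WT replicates 1 and 2, the difference was 0.00256. On A_52_P199905 it was -0.10 (SE 0.22), with 0.42 and -0.61 within the slides, and 0.00427 without WT replicate 3. Leaving out that WT sample thus turned the sign of both Slc27a1 probes, whereas without WT replicate 1 the differences were -0.63 on A_51_P117477 and -0.26 on A_52_P199905. On Cy5 alone A_51_P117477 had -0.50.

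Slc27a2, the very-long-chain acyl-CoA synthetase of hepatocytes, was detected on all arrays, with Cy5 median signals of 3510 to 22676, and 5 of its 8 spots were flagged. With flagged spots kept its log2 ratio was 0.56, 0.25, -0.39 and 0.26 in WT and 0.33, 0.32, 0.16 and 0.24 in miR-223KO. The miR-223KO samples lay inside the WT range, and the difference was 0.09 (SE 0.20).

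Fabp1, the fatty acid-binding protein of hepatocytes, had Cy5 median signals of 42377 to 178374. With flagged spots kept its log2 ratio was 1.18, 0.83, 0.70 and 2.31 in WT and 1.43, 0.94, 1.14 and 1.25 in miR-223KO, but 3 of 4 spots in each group were flagged. WT replicate 4 stood above all other samples, and the rest of both groups overlapped. The means were 1.25 ± 0.73 (SD, n = 4) and 1.19 ± 0.21 (SD, n = 4), a difference of -0.07 (SE 0.29).

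Fabp2, the intestinal isoform, was detected on all 8 arrays by both of its probes. Of the enterocyte markers on the array, Vil1 and Cdh17 were above background on 0 arrays and Lct on 1, while Sis was on 7, and Apoa4 and 1 of 2 Alpi probes were on 8. On A_52_P453013, the probe with the seed complement, the log2 ratio was -0.11, -0.06, -0.11 and 0.10 in WT and 0.23, 0.26, -0.03 and 0.43 in miR-223KO. WT replicate 4 and miR-223KO replicates 3 and 4 were flagged there, which left too few values for the fit. With them kept the groups overlapped through miR-223KO replicate 3, and the difference was 0.27 (SE 0.17). The authors' deposited table gives 0.31. The other Fabp2 probe, A_51_P313581, was flagged on 6 arrays and had a difference of 0.10 (SE 0.20) with flagged spots kept.

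Fabp4, the isoform of adipocytes and macrophages, was measured by 3 probes, which gave unlike values. On A_51_P336830 the log2 ratio was 0.79, 0.50, 0.96 and 0.37 in WT and 0.56, 0.58, 0.16 and 0.43 in miR-223KO, a difference of -0.22 (SE 0.19). On A_52_P564544 it was -0.14, 0.06, 1.00 and 0.21 in WT and 0.25, -0.05, -0.20 and -0.34 in miR-223KO, a difference of -0.37 (SE 0.24). The groups overlapped on both of these probes, and the highest value on each was that of WT replicate 3. On the remaining probe, A_51_P336833, the log2 ratio was -0.57, -0.62, 0.20 and -0.44 in WT and 0.09, -0.57, -0.12 and -0.60 in miR-223KO, a difference of 0.06 (SE 0.22). Without WT replicate 3 the differences were -0.12, -0.13 and 0.24 in the same order. The sign turned under 1 of 20 settings for A_51_P336830, under 4 of 19 for A_51_P336833 and under none of 19 for A_52_P564544. The settings counted were not independent. Aquantile normalisation between arrays left each difference as reported, and the deposited ratios are those of the scanner's processed signals. The authors' deposited table gives -0.01, -0.37 and 0.13. No direction can be given for Fabp4 from these probes.

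Fabp7, the brain isoform, was near the floor of the arrays, with Cy5 median signals of 78 to 154 and detection on 3 WT and 4 miR-223KO arrays. Its difference was 0.02 (SE 0.17), with 0.21 and -0.17 within the slides. Fabp5 was not well above background in Cy5 on any array, with Cy5 median signals of 47 to 71.5 over local backgrounds of 44 to 63, so no difference is given for it.

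WT replicate 3 was the highest of the 8 samples on all 3 Fabp4 probes, both Slc27a1 probes and the Fabp7 probe. WT replicate 1 was the lowest of the 8 on Cd36 A_51_P375138, Slc27a4 A_52_P61854 and both Slc27a1 probes. The spread between WT samples was therefore shared by several of these genes. Any pair of arrays had a correlation of only 0.249 to 0.548 over 21503 probes.

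The log2 ratio also carries the reference channel, so the channels were set side by side. The liver channel (Cy5) differed by 1.03 and the reference channel (Cy3) by -0.00 for Vldlr A_51_P278334, and by 0.61 and 0.05 for Vldlr A_51_P500044. The same pair of values was 0.44 and -0.10 for Cd36 A_51_P375138, and 0.56 and 0.10 for Slc27a4 A_52_P61854. In these 4 probes the liver channel held most of the difference. Fabp4 A_51_P336830 had 0.12 in Cy5 and 0.35 in Cy3, so that its negative ratio came with a higher reference signal and not with a lower liver signal. For Slc27a4 A_51_P408609, whose ratio differed by 0.02, the reference channel also moved more than the liver channel (-0.05 against -0.03).

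**Figure D3:**
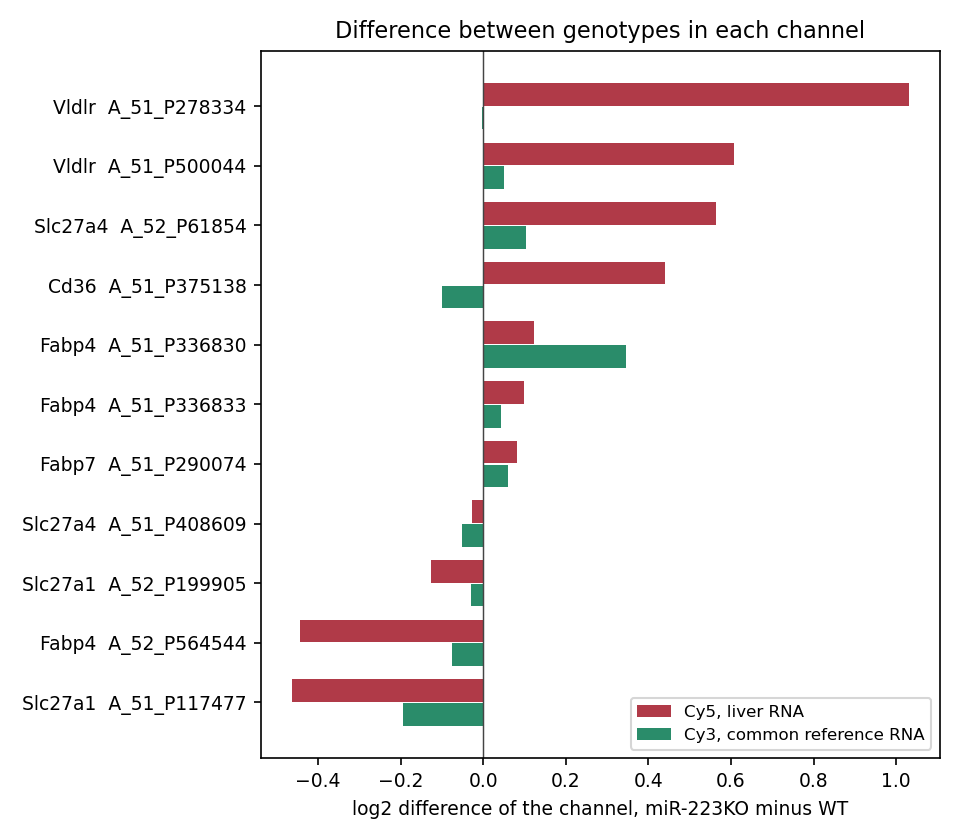
Difference between miR-223KO and WT in the liver channel (Cy5, red bars) and in the common reference channel (Cy3, green bars), in log2 units, for each of the 11 probes tested. The Vldlr bars are almost wholly Cy5 (1.03 against -0.00 for A_51_P278334), whereas Fabp4 A_51_P336830 has its longer bar in Cy3 (0.35 against 0.12).

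In the log2 ratios of the authors' deposited table, 12 of the 13 probes could be tested, and 8 had a difference above 0. There 3 probes were separated upward (Vldlr A_51_P278334, Cd36 A_51_P375138 and Slc27a4 A_52_P61854), and none downward. Of the 25045 probes tested on those ratios, 2.01% were separated upward and 1.45% downward. The lowest adjusted p of limma on those ratios was 0.496. With outlier-flagged spots kept in the scanner values, 16 probes of 9 genes were tested and 11 had a difference above 0. Of the 16, 1 was separated upward, against 1.54% of all probes tested.

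**Figure D4:**
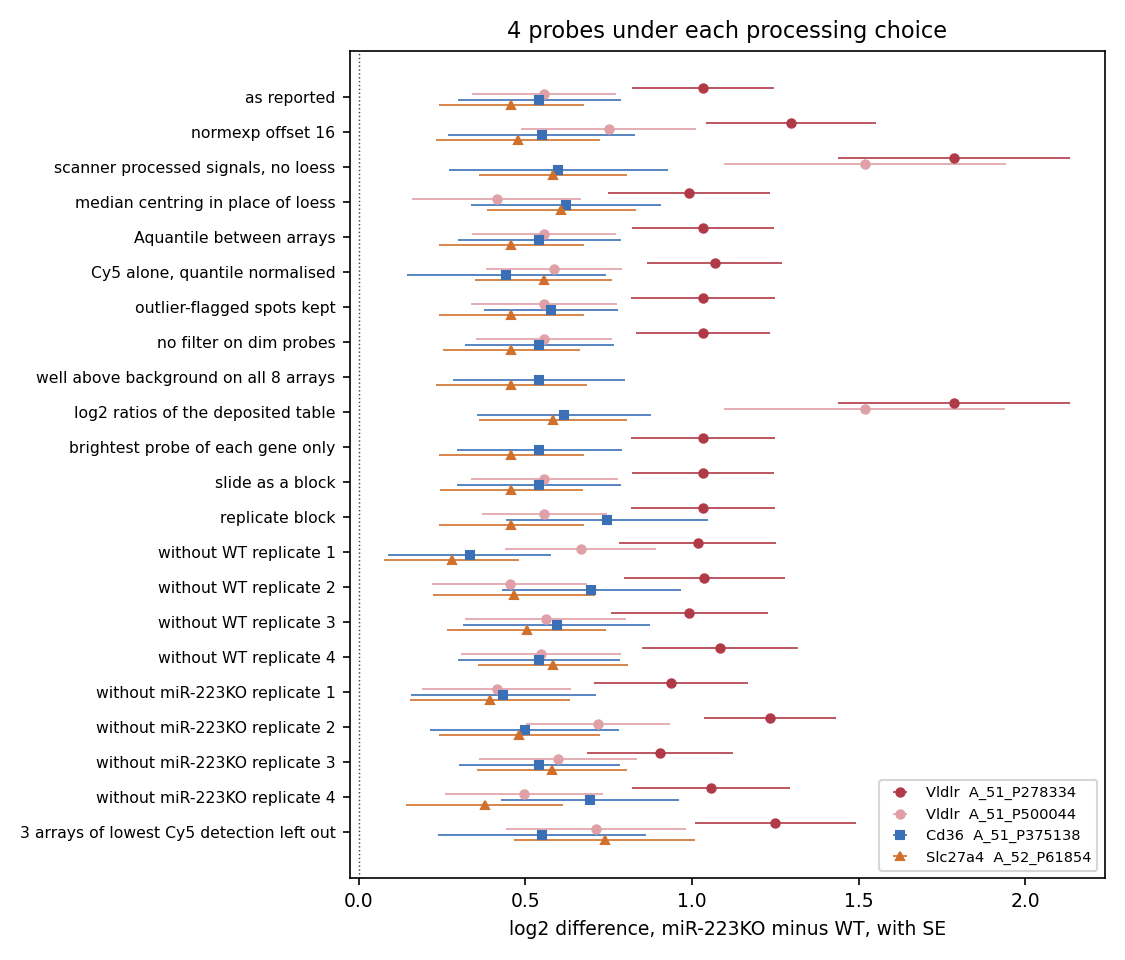
Difference in log2 ratio between miR-223KO and WT, with its SE, for 4 probes under the processing choices (1 row each) that tested them. All points shown lie above 0. Neither Vldlr probe has a point where Cy5 had to be above background on all 8 arrays. Vldlr A_51_P500044 also has none where only the brightest probe of each gene was used. Vldlr A_51_P278334 runs from 0.90 to 1.79, with the largest values from the scanner's processed signals and the deposited ratios, and Slc27a4 A_52_P61854 falls to 0.28 without WT replicate 1.

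The genes whose log2 ratio followed Vldlr A_51_P278334 most closely over the 8 arrays, by Pearson correlation among 19640 probes, were Man1b1 (r = 0.97), Rcbtb2 (r = 0.97) and Med15 (r = 0.95). For Cd36 A_51_P375138, over the 6 arrays with an unflagged value, they were Anxa13, Tmem39b and Grk2 (r = 1.00, 0.99 and 0.99). These are the highest of a very large number of correlations over few arrays of both genotypes and are given as a description.

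Other genes of the pathway were taken from lists. Of 18 other genes of fatty acid transport and activation, 9 were tested on 13 probes, 3 of them above 0 and 10 below, with a median difference of -0.03, and none passed limma or had an unadjusted p under 0.05. The smallest p belonged to Got2, the mitochondrial aspartate aminotransferase also described as a fatty acid-binding membrane protein (-0.44, SE 0.22), to 1 of 3 Acbd3 probes (-0.34, SE 0.21, with -0.10 and -0.01 on the others) and to the caveolar protein Cav1 (-0.21, SE 0.19). Of the lipoprotein receptors, lipases and their regulators, 18 genes were tested on 26 probes, 9 above 0 and 17 below, with a median of -0.07. None passed, and 1 had an unadjusted p under 0.05. The endothelial lipase gene Lipg was among the 3 of smallest p (0.31, SE 0.23).

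Of the nuclear receptors and other factors known to act on these genes, 19 were tested on 27 probes, 12 above 0 and 15 below, with a median of -0.09, and none passed. An unadjusted p under 0.05 was found for 1 higher probe, 1 of 2 of Foxo1, a transcription factor of the fasted liver (0.62, SE 0.18), and for 2 of 3 probes of the coactivator gene Ppargc1b (-0.39, SE 0.18, and -0.47, SE 0.21). The other Foxo1 probe, detected on all 8 arrays, had -0.09 (SE 0.22), and the remaining Ppargc1b probe had -0.19 (SE 0.23). Ppara and Pparg, the receptors best known to drive Cd36 and the Fabp genes, had differences of -0.06 (SE 0.18) and 0.14 (SE 0.18). For the 3 lists the lowest adjusted p was 0.985.

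Cell type markers were measured beside these genes, since in whole liver a change in the number of cells of a type and a change in RNA per cell cannot be told apart. Each range below is the mean log2 ratio of a list's tested probes on an array, over the 4 arrays of a group. Of all probes tested, 49.4% had a difference above 0. An unadjusted p under 0.05 in limma was found for 4.54% of them, and for 2.35% with miR-223KO higher. All 7 hepatocyte probes had a difference below 0 (median -0.32), and their mean was 0.66 to 1.42 in WT and 0.26 to 0.77 in miR-223KO. An unadjusted p under 0.05 was found for 2 of them, Alb (-0.66, SE 0.25) and Apob A_51_P436690 (-0.65, SE 0.26), and neither passed. The other tested Apob probe had -0.09 (SE 0.25), and 2 of the Apob probes left untested for outlier flags had higher miR-223KO means among their unflagged values (-0.10 in WT and 0.62 in miR-223KO, and 0.09 and 0.58). Of the macrophage and Kupffer cell probes, 13 of 14 lay above 0 (median 0.34), with -0.36 to 0.40 in WT and -0.08 to 0.59 in miR-223KO. An unadjusted p under 0.05 was found for 2 higher probes, Trem2 A_51_P269546 (0.57, SE 0.21) and Csf1r A_51_P365885 (0.54, SE 0.20). The other Trem2 probe had 0.16 (SE 0.20), and the other Csf1r probes had 0.31 (SE 0.21) and 0.37 (SE 0.25). Macrophages are known to express Cd36, Vldlr and Fabp4 too, and the 3 Fabp4 probes had differences of -0.22, -0.37 and 0.06.

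Of the endothelial probes 10 of 13 lay above 0 (median 0.14), and the mean was -0.19 to 0.06 in WT and 0.08 to 0.17 in miR-223KO. How often the mean of a probe list differs this much between the groups was not measured. Here 3 higher probes had an unadjusted p under 0.05, those of Flt4 (0.51, SE 0.19) and Tie1 (0.40, SE 0.19) and 1 of Ptprb (0.63, SE 0.26, with -0.03 on its other tested probe). Of the adipocyte probes 1 of 5 lay above 0 (median -0.10), with -0.43 to 0.01 in WT and -0.43 to -0.19 in miR-223KO, and none had an unadjusted p under 0.05. Cfd, Cidea and both Lipe probes were above background on 8 arrays, Adipoq on 4, Plin1 on 1, the Retn probes on 0 and 1, and Lep on 0. The neutrophil list had 2 of 4 probes above 0 (median 0.02), with -0.25 to 0.03 in WT and -0.03 to 0.13 in miR-223KO. Its S100a9 probe had an unadjusted p under 0.05 (0.61, SE 0.20), and its other 3 tested probes lay between -0.12 and 0.07. The S100a9 groups did not overlap, as also for Csf1r A_51_P365885 and, with miR-223KO higher, for 1.69% of all probes. Of the untested neutrophil probes, S100a8 had means of -0.29 in WT and 0.14 in miR-223KO, and Elane had -0.03 and -0.05. The enterocyte list had 2 probes, both below 0, with -0.09 to 0.34 in WT and -0.41 to 0.25 in miR-223KO, and that of Sis had an unadjusted p under 0.05 (-0.42, SE 0.19). No marker probe passed limma, and the part of any of these cell types in the Vldlr, Cd36 and Fabp values was not tested.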

How the data were processed

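The scans of the arrays (Agilent design 014868, with a grid labelled mm9) were read by Feature Extraction 12.0.3.1 under GE2_1200_Jun14, per the file headers. Scanner files were deposited with median Cy5 and Cy3 spot signals and local backgrounds as intensity. The authors' deposited table holds log2 ratios of the scanner's processed signals per sample and a log2 fold change, which matched the difference of the group means to within 5.2e-07.

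From the median signals, background was corrected by normexp (offset 50), ratios were normalised by loess within arrays, outlier-flagged spots were left out, and miR-223KO was compared with WT by lmFit and eBayes in limma 3.58.1 (R 4.3.3), two-sided, with Benjamini-Hochberg adjustment over 23930 probes. Each result was also computed with each replicate left out and under other normalisations, filters and blocks. Cy5 and Cy3 differences were rebuilt from the ratio and the mean log2 signal after Aquantile normalisation. Probes were named by RefSeq accession (28462), by the symbol of the authors' deposited table (6902) or not at all (5810). The fit was tested on simulated data, but no outcome of that test is given here.

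The genes, lists and markers were chosen with earlier results of these data known. Named beyond the 10 genes are, for each pathway list, the probes past the test or else the 3 of smallest unadjusted p, the 3 genes most correlated with Vldlr and with Cd36, and the markers. Some genes that this rule takes are not reported here. Ppara, Pparg and, among markers, those with values were named after their values were seen. Same-numbered replicates did not deviate together (correlations of -0.00, 0.05, 0.01 and -0.02), so the numbers were not taken as pairs.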

Additional observations from a re-analysis of the deposited data

How the results depend on the processing

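No member probe passed limma under any setting run, and the sign of both Vldlr probes, Cd36 A_51_P375138 and Slc27a4 A_52_P61854 turned under none. That does not cover Vldlr when Cy5 had to be above background on all 8 arrays, where neither of its probes was tested. In that setting 0 of the 7 member probes tested had an unadjusted p under 0.05 in limma. Without miR-223KO replicate 1 it was 1 of 11. Cd36 A_51_P375138 was under 0.05 in 11 of 20 settings. Over all probes, 2 passed as reported, 6 with a normexp offset of 16, 4 when Cy5 had to be above background on all 8 arrays, and 1 each with processed signals, median centring, Cy5 alone, flagged spots kept or the ratios of the authors' deposited table. Leaving out a replicate gave 2 to 4, and leaving out the 3 arrays of lowest Cy5 detection, a choice made after seeing the data, gave 5. The cause was not tested. With the replicate block 3 probes passed, none of them a member, and Cd36 A_51_P375138 had a difference of 0.75 against 0.54. That value equals its slide 1 difference. WT replicate 4 and miR-223KO replicate 3 were flagged, so only replicates 1 and 2 had a value in both groups. Vldlr A_51_P278334 ranged from 0.90 to 1.23 over the replicates left out, and its adjusted p over all planned settings was lowest, at 0.112, without miR-223KO replicate 2. With processed signals the Vldlr differences were 1.79 and 1.52, Fabp7 had 0.22, and on Cy5 alone Fabp4 A_51_P336830 had 0.11. Dim signal limits Vldlr, Fabp7, Fabp5 and Slc27a4 A_51_P408609, and outlier flags limit Cd36, Fabp1, Fabp2 and Slc27a2.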
